A study of Mus musculus with 18 samples.

Results

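The genes described here are 7 members of the glucocorticoid response and of the programme that lets erythroid progenitors self-renew: Nr3c1, Zfp36l2, Tsc22d3, Fkbp5, Bmi1, Txnip and Per1. They were chosen by name for their function, with earlier results of these data known. They are 7 of the 21967 genes in the count table. RNA was sequenced from 2 successive erythroid progenitors of mouse bone marrow, the PreCFU-E and the later CFU-E (colony-forming unit erythroid), which had been enriched on c-Kit and sorted by surface markers. The mice differed in Scf, the gene (symbol Kitl) of the ligand of the KIT receptor, and 3 genotypes were compared. FL/FL mice had floxed Scf with no Cre listed, and KO/FL mice combined a null with a floxed allele, again with no Cre listed. KO/FL;Lepr-Cre mice, called Lepr-Cre mice here, had the same null and floxed alleles and a Cre driven from the leptin receptor locus, which is active in stromal cells of the marrow and not in the blood cells that were sequenced. The cells measured were therefore not themselves the target of the deletion, and the null copy was common to the KO/FL and the Lepr-Cre mice. Every genotype was represented by 3 mice, lettered A, B and C, and PreCFU-E and CFU-E were sorted from the same 9 mice, which makes 18 libraries. B is a female mouse in every genotype, A and C are males, and no age or treatment is stated.

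Glucocorticoids act through the receptor encoded by Nr3c1, a transcription factor that is held in the cytoplasm by heat shock proteins and moves to the nucleus when it binds hormone. In erythropoietic stress the hormone, together with the KIT ligand and erythropoietin, is known to keep early erythroid progenitors dividing without maturing. Tsc22d3 (the glucocorticoid-induced leucine zipper), Fkbp5 (a chaperone that lowers the receptor's affinity for hormone), Per1 (a repressor of the circadian clock) and Txnip (an arrestin-family protein that binds thioredoxin and limits glucose uptake) are known targets of the receptor. Zfp36l2 is an RNA-binding protein that destabilises mRNAs with AU-rich elements and is needed for burst-forming erythroid progenitors to self-renew, and Bmi1 is a subunit of Polycomb repressive complex 1 that supports self-renewal of blood stem cells and erythroblasts.

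Promoter sequences are shown for 4 of the glucocorticoid targets, because these genes moved between groups or between mice and their start sites hold motifs of known factors. They are the 250 bases before a RefSeq start site on GRCm38.p6, written in the direction of transcription, and capitals mark every match to a searched motif on either strand. The Txnip promoter lies at chr3:96557707-96557956 on the plus strand, that of Fkbp5 at chr17:28486150-28486399 on the minus strand, that of Tsc22d3 at chrX:140600523-140600772 on the minus strand and that of Per1 at chr11:69099902-69100151 on the plus strand.
Txnip: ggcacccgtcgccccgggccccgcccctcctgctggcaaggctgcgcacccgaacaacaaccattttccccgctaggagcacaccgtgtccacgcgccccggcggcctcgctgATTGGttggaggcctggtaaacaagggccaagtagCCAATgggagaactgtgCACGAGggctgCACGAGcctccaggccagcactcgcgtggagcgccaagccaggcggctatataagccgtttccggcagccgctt
Fkbp5: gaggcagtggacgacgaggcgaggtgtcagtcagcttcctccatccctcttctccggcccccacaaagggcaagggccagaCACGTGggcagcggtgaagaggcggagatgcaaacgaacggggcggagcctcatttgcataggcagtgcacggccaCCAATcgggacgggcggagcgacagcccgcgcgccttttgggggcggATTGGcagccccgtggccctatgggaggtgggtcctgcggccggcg
Tsc22d3: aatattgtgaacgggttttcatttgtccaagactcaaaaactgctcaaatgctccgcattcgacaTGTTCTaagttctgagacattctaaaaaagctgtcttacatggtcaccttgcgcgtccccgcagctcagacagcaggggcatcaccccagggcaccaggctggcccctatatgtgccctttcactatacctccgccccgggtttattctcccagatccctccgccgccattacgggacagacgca
Per1: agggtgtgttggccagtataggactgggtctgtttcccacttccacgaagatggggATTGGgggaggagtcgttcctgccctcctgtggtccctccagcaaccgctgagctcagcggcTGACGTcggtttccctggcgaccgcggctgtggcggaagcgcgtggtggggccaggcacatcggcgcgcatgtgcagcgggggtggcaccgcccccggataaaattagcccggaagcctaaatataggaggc
The table of promoters held 8 windows for 5 of the 7 genes, and Zfp36l2 and Nr3c1 are named only. Shares below are of all 32851 promoter windows of 300 bases. In Txnip, CACGAG, a box bound by the glucose-sensing factors MondoA and ChREBP, occurs at positions -85 and -74 from the start site, 5 bases apart. CACGAG is held by 6.47% of all windows. The exact string of CACGAG, any 5 bases and CACGAG again is in 1 window, 0.00304%, which is that of Txnip. That string is the spelling in Txnip, and other spellings of such a pair were not searched, so the share says nothing of related elements in other promoters. The same promoter has CCAAT or its complement, the box of nuclear factor Y, at -137 and -102, a motif held by 37.4% of windows and found at -93 and -46 in Fkbp5 and at -194 in Per1. The E-box CACGTG, bound by the clock factors among others, is found at -169 in Fkbp5, at -215 in Bmi1 and at -166 in another start site of Per1, with 7.15% of all windows holding it. The Per1 promoter shown has TGACGT, the core of the cAMP response element, at -132 (7.51% of windows). The Tsc22d3 promoter shown has a match to AGAACA, which is 1 arm of the glucocorticoid response element, at -185, and 19% of windows hold that motif. The other 2 windows of Tsc22d3 hold none of the searched motifs. The full palindrome, AGAACA followed after 3 bases by its mirror TGTTCT, is in none of the 8 windows searched for members and in 3 of all windows (0.00913%). A match is a description of letters and not of binding.

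Library totals ranged from 3541066 to 9389122 counts. The lowest count of a member in any library was 35, for Tsc22d3, and all 7 passed the filter on low counts in every fit. The 8 erythroid markers summed to between 4734 and 6143 CPM (counts scaled by library total and composition) in all libraries. Of the markers of other blood cells, those of megakaryocytes had the highest sums, 24.1 to 52.9 CPM. The others were lower: the 10 neutrophil and monocyte markers summed to at most 5.05 CPM with Elane, Ctsg and Ly6c2 at 0 counts, B cell markers to at most 14.1, T and NK cell markers to at most 7.31, mast cell and basophil markers to at most 5.02 and macrophage markers to at most 5.86 CPM. Kitl, the targeted gene, had at most 1 count in any library, so that the deletion in stroma could not be checked in these cells. The 6 early progenitor markers differed between groups, with sums of 197 to 227 CPM in FL/FL, 161 to 172 in KO/FL and 63.0 to 104 in Lepr-Cre PreCFU-E, and 34.1 to 43.3, 35.5 to 40.0 and 11.9 to 36.4 CPM in the CFU-E of those genotypes. In bulk libraries fewer cells of a kind and less RNA per cell cannot be told apart. Every n is a number of mice, and p-values between genotypes measure the spread between these mice. In fits of both cell types without a term for the mouse, its PreCFU-E and CFU-E libraries were treated as independent.

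Compared per length of exon (CPM per kb of merged GENCODE exons, mean of 18 libraries), Zfp36l2 was the most abundant of the 7 at 87.9, followed by Txnip at 40.0, Nr3c1 at 23.5, Bmi1 at 19.2, Per1 at 11.8, Fkbp5 at 8.92 and Tsc22d3 at 3.23. The order was not the same in each group. In FL/FL PreCFU-E the level of Txnip was 75.8 CPM per kb, above the 31.4 of Nr3c1 and the 19.2 of Bmi1. In Lepr-Cre CFU-E it was 17.5, close to the 16.2 of Nr3c1 and below the 20.7 of Bmi1. An antisense gene, Gm15441, shares 606 exon bases with Txnip, and another, AC132455.1, shares 105 with Zfp36l2. Neither is in the count table, and since the strand setting of the counting is not stated, their reads cannot be told apart from those of Txnip and Zfp36l2.

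**Figure D1:**
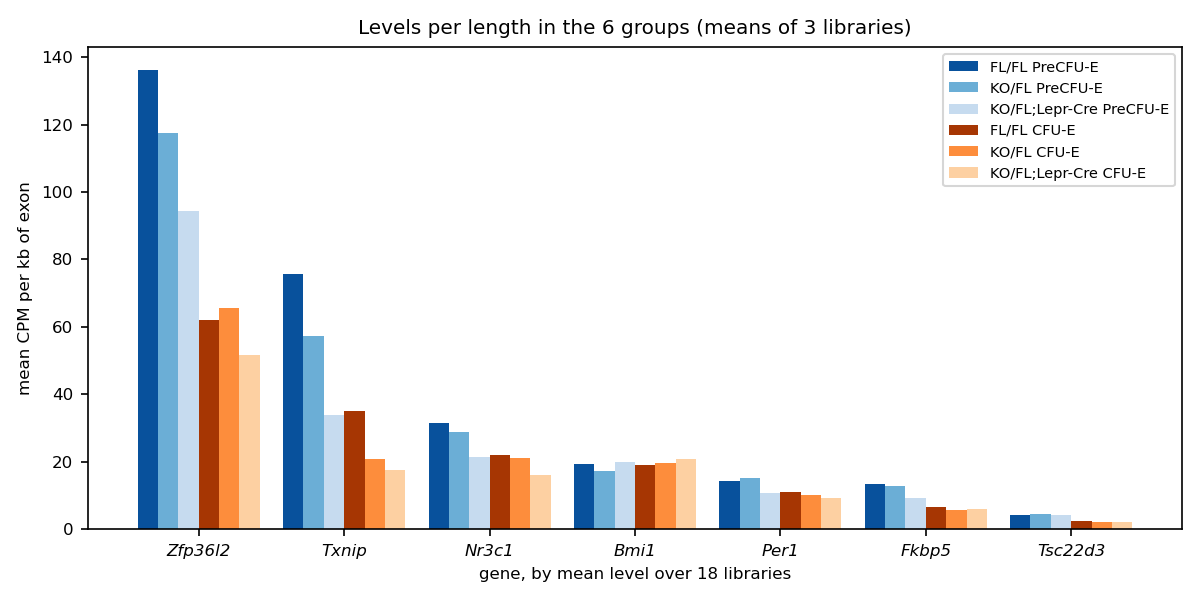
Mean level of each gene per kb of exon (bars, 3 libraries each, axis from 0) in the 6 groups, ordered by the mean over 18 libraries. Zfp36l2 and Txnip have the tallest bars in FL/FL PreCFU-E (136 and 75.8 CPM per kb), and Bmi1 has bars of similar height in all groups (17.3 to 20.7).

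The Lepr-Cre mice were compared with both control genotypes, first in PreCFU-E. Txnip and Nr3c1 were lower in PreCFU-E of Lepr-Cre mice than of FL/FL mice, and no member passed as higher. In Txnip the levels of mice A, B and C were 224, 232 and 254 CPM in FL/FL, 125, 198 and 213 CPM in KO/FL, and 80.0, 128 and 110 CPM in Lepr-Cre PreCFU-E. Each Lepr-Cre library lay below each FL/FL library, and against KO/FL the groups overlapped, since KO/FL mouse A at 125 CPM lay below Lepr-Cre mouse B. The share of all genes whose groups do not overlap was not computed, here or in the comparisons below. The log2 fold change of Lepr-Cre against FL/FL was -1.15 (SE 0.19, edgeR quasi-likelihood test, Benjamini-Hochberg adjusted p = 0.00348). Against KO/FL it was -0.76 (SE 0.19, edgeR adjusted p = 0.0702), which passed with the replicate letter as a block (-0.75, adjusted p = 2.88e-06), in DESeq2 (adjusted p = 0.00338), and without KO/FL mouse A (-0.95, adjusted p = 0.000972) or Lepr-Cre mouse B (-0.92, adjusted p = 0.033).

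The receptor gene Nr3c1 stood at 248, 247 and 228 CPM in FL/FL PreCFU-E, at 199, 291 and 177 CPM in KO/FL and at 181, 164 and 146 CPM in Lepr-Cre PreCFU-E. The 3 Lepr-Cre values were below the 3 of FL/FL, and KO/FL spanned both. Nr3c1 was lower in Lepr-Cre than in FL/FL mice by a log2 fold change of -0.56 (SE 0.14, edgeR adjusted p = 0.0255). This call was lost without FL/FL mouse A (adjusted p = 0.0927) or B (0.0808), without Lepr-Cre mouse B (0.0921) or C (0.118), without all A mice (0.137) and in a fit of all 18 libraries (0.0586), at log2 fold changes of -0.48 to -0.60. It was also lost in limma on log2(RPKM + 1) (adjusted p = 0.114) and on log2(RPKM + 0.1) (0.109). With the replicate letter as a block Nr3c1 passed in edgeR (-0.56, adjusted p = 9.72e-05). Against KO/FL mice the difference in Nr3c1 was -0.45 (SE 0.15, edgeR adjusted p = 0.135), and -0.43 with letters blocked (adjusted p = 0.00472).

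Zfp36l2 and Fkbp5 had lower means in Lepr-Cre PreCFU-E without passing the unblocked test, and both passed against FL/FL with the replicate letter as a block. Zfp36l2 had 436, 604 and 403 CPM in FL/FL, 379, 447 and 419 CPM in KO/FL and 232, 422 and 346 CPM in Lepr-Cre PreCFU-E, and Lepr-Cre mouse B lay inside the range of the other groups. The log2 fold change against FL/FL was -0.52 (SE 0.21, edgeR adjusted p = 0.189), and -0.54 with letters blocked (adjusted p = 0.00797). Without Lepr-Cre mouse B it was -0.74 (adjusted p = 0.0392). Fkbp5 had 177, 119 and 87.0 CPM in FL/FL, 149, 133 and 81.4 CPM in KO/FL and 95.8, 89.9 and 75.5 CPM in Lepr-Cre PreCFU-E. Mouse C was the lowest of each of these groups, and the C mice of the control genotypes lay within the Lepr-Cre range. The log2 fold change against FL/FL was -0.55 (SE 0.29, edgeR adjusted p = 0.357), and with the block it was -0.50 (adjusted p = 0.00164) against FL/FL and -0.44 (adjusted p = 0.0113) against KO/FL.

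The other 3 members did not pass in any comparison of genotypes in PreCFU-E, with or without the block. Bmi1 had means of 76.3 ± 1.8 (SD, n = 3), 68.6 ± 7.2 and 78.6 ± 22.2 CPM in FL/FL, KO/FL and Lepr-Cre PreCFU-E, and Lepr-Cre against FL/FL was 0.05 (log2, SE 0.17). Tsc22d3 had means of 17.8 ± 9.8, 19.4 ± 10.2 and 17.8 ± 6.0 CPM, and its difference between Lepr-Cre and FL/FL was -0.00 with an SE of 0.43. Per1 had means of 80.6 ± 68.6, 86.1 ± 41.4 and 60.5 ± 25.9 CPM, and its difference of -0.42 had an SE of 0.70. In Tsc22d3 and Per1 the mice of a group differed widely from each other.

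Read against all genes, 2 of 7 members were called in Lepr-Cre against FL/FL PreCFU-E, where 6.13% of 10309 tested genes were called, 2.89% higher and 3.24% lower. The median log2 fold change was -0.52 over the members and 0.00 over all tested genes. With the replicate letter as a block 4 members were called, beside 15.4% of genes. In Lepr-Cre against KO/FL PreCFU-E none of the 7 was called, beside 2.18% of genes, and 3 were with the block, beside 8.15%. Both comparisons use the same Lepr-Cre libraries. The members were chosen with earlier results of these data known, so their counts and medians beside those of all genes are no test of the set. The early progenitor markers had lower sums in the same PreCFU-E libraries ( 197 to 227 CPM in FL/FL and 63.0 to 104 in Lepr-Cre mice), and their part in the lower Txnip and Nr3c1 was not tested.

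**Figure D2:**
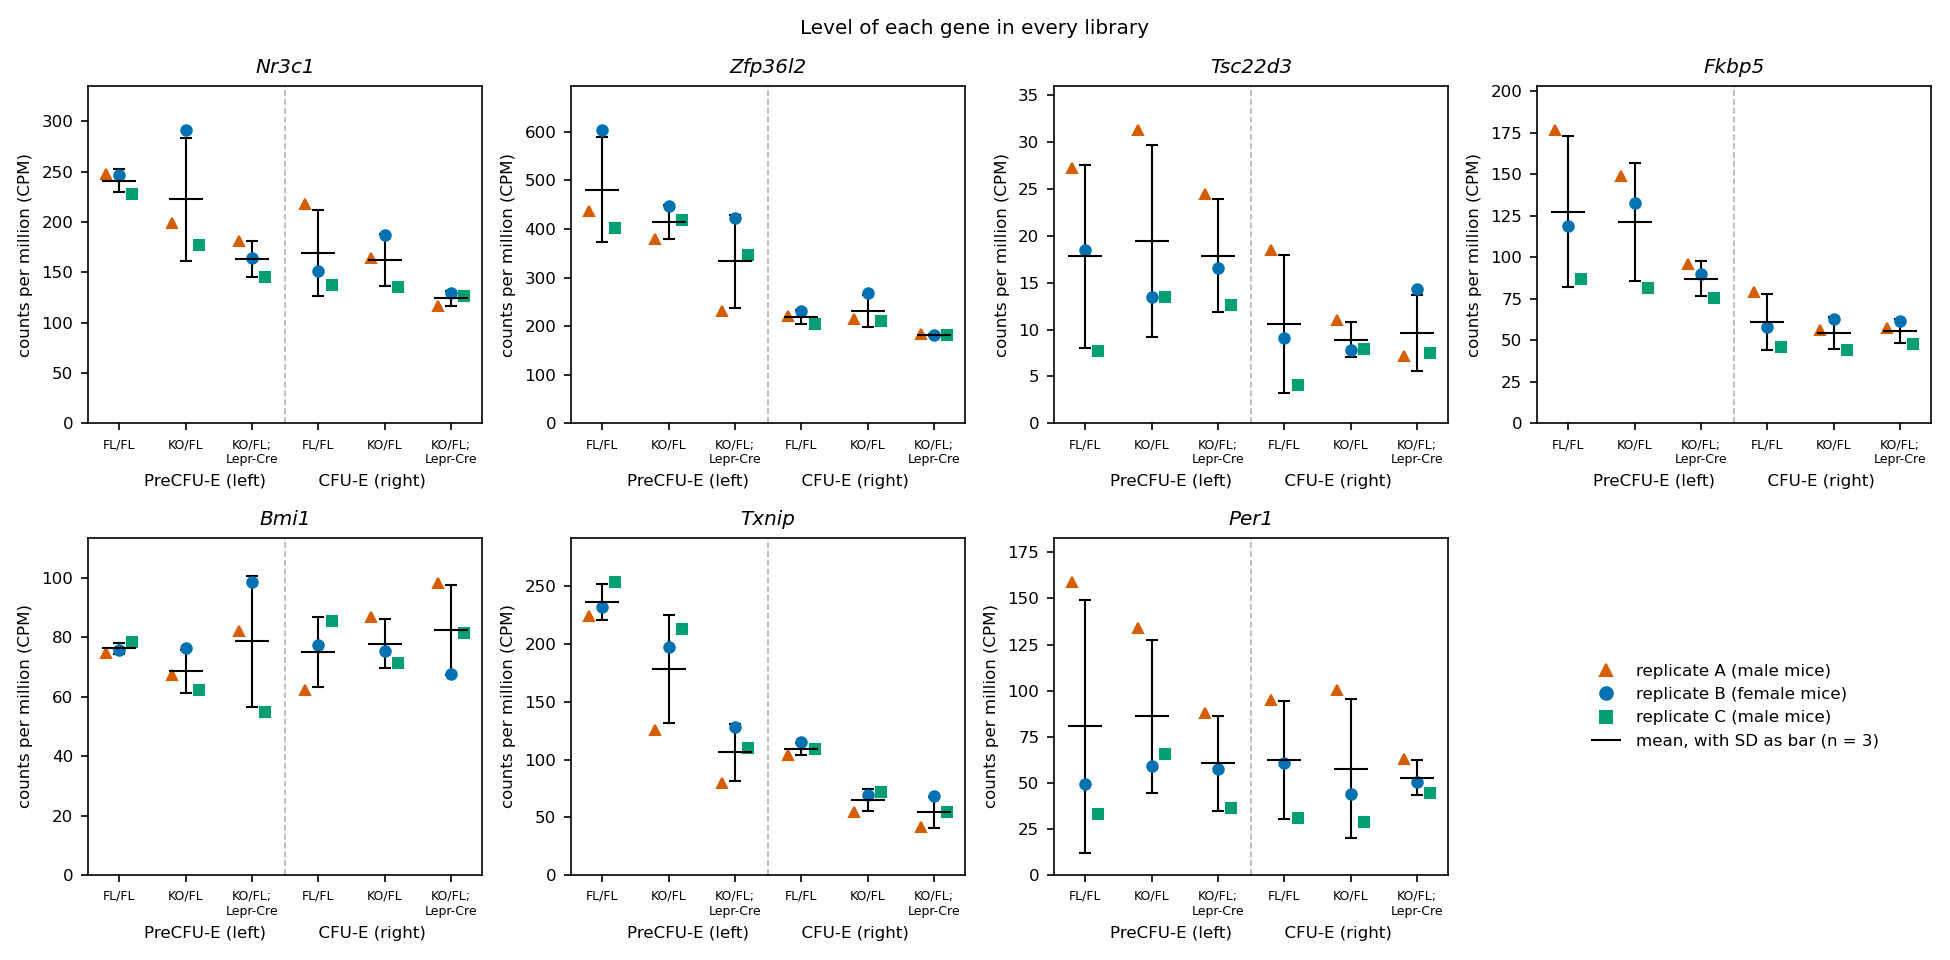
CPM of each gene (vertical axes from 0) in every library of the 6 groups, with symbols for the replicate letters and the mean and SD of 3 mice in black. The mean of Txnip is highest in FL/FL and lowest in Lepr-Cre mice in both cell types, Bmi1 stays between 54.8 and 98.7 CPM, and the A mice carry the highest Per1 of each group.

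In CFU-E, Txnip alone of the 7 genes was lower in Lepr-Cre than in FL/FL mice by the unblocked test. Nr3c1 also passed with the replicate letter as a block. No member differed from KO/FL mice in either fit. Txnip levels of mice A, B and C were 104, 115 and 109 CPM in FL/FL, 54.5, 69.4 and 71.7 CPM in KO/FL and 41.2, 68.1 and 54.2 CPM in Lepr-Cre CFU-E. All 6 libraries with a null copy lay below the 3 of FL/FL mice, while KO/FL and Lepr-Cre overlapped. The log2 fold change of Lepr-Cre against FL/FL was -0.99 (SE 0.17, edgeR adjusted p = 0.00113), and that against KO/FL was -0.25 (SE 0.17, adjusted p = 0.607).

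Nr3c1 in CFU-E stood at 218, 152 and 138 CPM in FL/FL, at 164, 188 and 136 CPM in KO/FL and at 116, 130 and 126 CPM in Lepr-Cre mice. The Lepr-Cre values lay below all 6 others, although the gap to the lowest KO/FL library was small. The log2 fold change against FL/FL was -0.43 (SE 0.15, edgeR adjusted p = 0.112), and it passed with the replicate letter as a block (-0.41, adjusted p = 0.0478) and without FL/FL mouse C (-0.56, adjusted p = 0.0271). Zfp36l2 had 222, 232 and 204 CPM in FL/FL, 215, 269 and 211 CPM in KO/FL and 184, 182 and 181 CPM in Lepr-Cre CFU-E. Its Lepr-Cre values were again below all others, with log2 fold changes of -0.25 (SE 0.11, adjusted p = 0.218) against FL/FL and -0.34 (SE 0.11, adjusted p = 0.179) against KO/FL by edgeR. How many of all genes have Lepr-Cre values below all others was not computed, so the separation is a description only. Fkbp5 had 79.2, 58.2 and 45.8 CPM in FL/FL, 56, 63 and 44.2 CPM in KO/FL and 57.4, 61.9 and 47.8 CPM in Lepr-Cre CFU-E, with overlapping groups and a log2 fold change of -0.11 (SE 0.19) against FL/FL. Bmi1, Tsc22d3 and Per1 differed between Lepr-Cre and FL/FL CFU-E by 0.15 (SE 0.16), -0.10 (SE 0.44) and -0.21 (SE 0.56) on the log2 scale.

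In Lepr-Cre against FL/FL CFU-E, 1 of 7 members was called, beside 4.83% of 10192 tested genes (2.08% higher and 2.75% lower). With the block 2 were called, beside 9.15%. In Lepr-Cre against KO/FL CFU-E 0 of 7 members were called, beside 1.01% of genes. B cell markers were highest in Lepr-Cre CFU-E, at 1.75 to 14.1 CPM in sum, and their part in these values was not tested.

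The KO/FL genotype was compared with FL/FL to see the null copy without Cre. No member passed the test in either cell type, where edgeR called 0% of genes in PreCFU-E and 0% in CFU-E. Unadjusted p-values were under 0.05 for 350 genes in PreCFU-E and 210 in CFU-E, and DESeq2 called 4 and 1. Txnip was the member with the widest difference. Its KO/FL libraries lay below all FL/FL libraries in PreCFU-E (log2 fold change -0.39, SE 0.19) and in CFU-E (-0.74, SE 0.17). In CFU-E the unadjusted edgeR p of Txnip was 0.000232, the adjusted p was 0.9997 with the filter on low counts and 0.0283 without it, and 0.0632 with letters blocked. The other 6 members had log2 fold changes between -0.21 and 0.09 in PreCFU-E and between -0.22 and 0.09 in CFU-E.

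**Figure D3:**
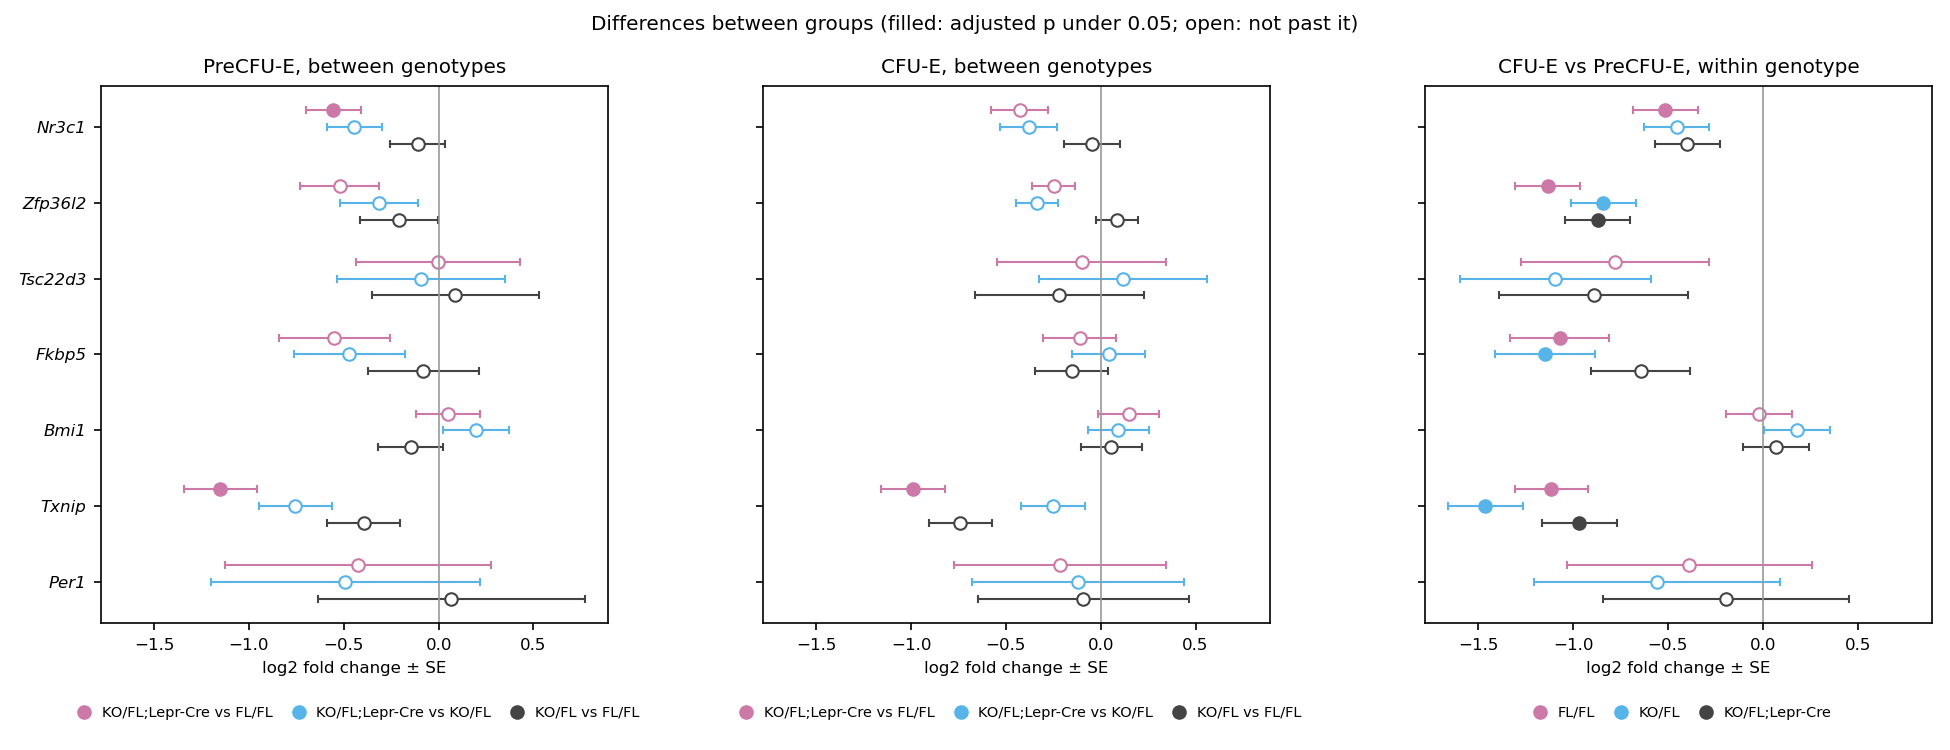
Log2 fold change of each gene with its SE (bars) for the comparisons of genotypes in PreCFU-E (left) and CFU-E (middle) and of CFU-E with PreCFU-E (right); filled points passed an adjusted p of 0.05. Txnip has filled points in all 3 panels, Nr3c1 in the left and right panels, and the bars of Per1 and Tsc22d3 cross or approach 0 in most comparisons.

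The step from PreCFU-E to CFU-E was followed within each genotype. In the fit without a term for the mouse, Zfp36l2 and Txnip fell in all 3 genotypes. Fkbp5 fell there in FL/FL and KO/FL mice and Nr3c1 in FL/FL mice. With the mouse as a block, Zfp36l2, Txnip, Fkbp5 and Nr3c1 passed in all 3 genotypes, and Tsc22d3 and Per1 in KO/FL mice. Bmi1 passed in neither fit. In the 9 mice, each of which gave both cell types, Zfp36l2, Txnip, Fkbp5, Nr3c1 and Tsc22d3 were lower in CFU-E in 9 of 9, Per1 in 7 of 9 and Bmi1 in 3 of 9. The share of all genes that were lower in 9 of 9 mice was not computed. The mean of Zfp36l2 went from 481 ± 108 to 219 ± 14 CPM (SD, n = 3) in FL/FL, from 415 ± 34 to 232 ± 32.5 in KO/FL and from 333 ± 96 to 182 ± 1.65 in Lepr-Cre mice, with no overlap between the cell types in any genotype. The log2 fold changes of Zfp36l2 were -1.13 (SE 0.17, edgeR adjusted p = 6.7e-05), -0.84 (SE 0.17, adjusted p = 0.00171) and -0.87 (SE 0.17, adjusted p = 0.003).

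The mean of Txnip went from 237 ± 15.7 to 109 ± 5.5 CPM in FL/FL, from 179 ± 46.9 to 65.2 ± 9.4 in KO/FL and from 106 ± 24.3 to 54.5 ± 13.4 in Lepr-Cre mice, again without overlap. The log2 fold changes of Txnip were -1.12 (SE 0.19, edgeR adjusted p = 0.00023), -1.46 (SE 0.20, adjusted p = 1.7e-05) and -0.97 (SE 0.20, adjusted p = 0.00351). The mean level of Txnip in Lepr-Cre PreCFU-E, 106 ± 24.3 CPM, and that in FL/FL CFU-E, 109 ± 5.5 CPM, differed by less than the SD of the former. These 2 groups differ in genotype and cell type, and their likeness was not tested. Fkbp5 went from 127 ± 45.5 to 61.1 ± 16.9 CPM in FL/FL (-1.07, SE 0.26, adjusted p = 0.00812), from 121 ± 35.4 to 54.4 ± 9.6 in KO/FL (-1.15, SE 0.26, adjusted p = 0.00628) and from 87.1 ± 10.5 to 55.7 ± 7.2 CPM in Lepr-Cre mice. In the Lepr-Cre mice the Fkbp5 difference was -0.64 (SE 0.26, edgeR adjusted p = 0.175), and it passed with the mouse as a block (-0.65, adjusted p = 0.000245).

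Nr3c1 went from 241 ± 11.5 to 169 ± 42.8 CPM in FL/FL, a log2 fold change of -0.51 (SE 0.17, edgeR adjusted p = 0.0397). In this fit without the mouse, the call was lost without any of the FL/FL PreCFU-E libraries (adjusted p = 0.107 without A, 0.0928 without B and 0.0507 without C) and without the CFU-E of mouse B (0.14) or C (0.146). It was also lost in limma on log2(RPKM + 1) (adjusted p = 0.0564) and on log2(RPKM + 0.1) (0.0566). With the mouse as a block the FL/FL difference passed in edgeR (-0.54, adjusted p = 5.52e-05). In KO/FL and Lepr-Cre mice the Nr3c1 differences were -0.45 (SE 0.17, adjusted p = 0.0848) and -0.40 (SE 0.17, adjusted p = 0.194), and with the mouse as a block they were -0.43 (adjusted p = 0.00133) and -0.40 (adjusted p = 0.0063). Tsc22d3 was lower in CFU-E by -0.78 (SE 0.50), -1.09 (SE 0.50) and -0.89 (SE 0.50) on the log2 scale in FL/FL, KO/FL and Lepr-Cre mice, none past the test, and with the mouse as a block the KO/FL difference passed (-1.03, adjusted p = 0.0153). Per1 differed by -0.39, -0.56 and -0.19 with SEs of 0.64 to 0.65, and with the block it passed in KO/FL mice (-0.66, adjusted p = 0.00633). Bmi1 differed by -0.02, 0.18 and 0.07, each with an SE of 0.17, and did not pass with the block.

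Of the 7 members 4 were called in FL/FL mice, where 18.3% of 10732 tested genes were called (8.99% higher and 9.30% lower). In KO/FL mice 3 were called, beside 14.1% (6.89% higher and 7.18% lower), and in Lepr-Cre mice 2, beside 7.25% (3.00% higher and 4.25% lower). With the mouse as a block 4, 6 and 4 members were called, beside 25.2%, 20.1% and 12.3% of genes. All called members were lower in CFU-E, and the median log2 fold changes over the 7 were -0.78, -0.84 and -0.65, with 0.01, 0.00 and -0.01 over all tested genes. The erythroid markers, which summed to 4734 to 5358 CPM in PreCFU-E and 5335 to 6143 in CFU-E, included 5 of 8 that rose in FL/FL mice, 6 in KO/FL mice and 4 in Lepr-Cre mice, where 1 fell. Of the early progenitor markers 4 were tested, and all 4 fell in mice of the FL/FL and the Lepr-Cre genotype and 3 in KO/FL mice. Their sums had ranges of 197 to 227, 161 to 172 and 63.0 to 104 CPM in PreCFU-E of FL/FL, KO/FL and Lepr-Cre mice, and of 34.1 to 43.3, 35.5 to 40.0 and 11.9 to 36.4 CPM in the CFU-E. The part of these markers in the members' fall was not tested.

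Whether the step differed between genotypes was tested as an interaction. None of the 7 members passed. edgeR called 0.354% of genes for Lepr-Cre against FL/FL mice, 0% for Lepr-Cre against KO/FL mice and 0% for KO/FL against FL/FL mice. In the last 2, 569 and 249 genes had an unadjusted p under 0.05, and DESeq2 called 23 and 0. With the mouse as a block edgeR called 1.84%, 0.568% and 0% of genes, in the order first given, and again no member. The differences between the steps of Txnip were 0.15 (SE 0.27) for Lepr-Cre against FL/FL, 0.50 (SE 0.27, edgeR adjusted p = 0.956) for Lepr-Cre against KO/FL and -0.35 (SE 0.27) for KO/FL against FL/FL. With the mouse as a block the Txnip difference for Lepr-Cre against KO/FL was 0.47 (SE 0.15, edgeR adjusted p = 0.23). For Fkbp5 the unblocked differences were 0.43, 0.50 and -0.08, each with an SE of 0.37. The genotype differences of these genes in PreCFU-E and in CFU-E are therefore not shown to differ.

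Within groups, several of the 7 genes had a like order of the replicate letters, and it was most regular in Per1. Each mouse is counted in its PreCFU-E and in its CFU-E group, so the 6 groups do not hold 6 separate mice of a letter. The share of all genes with such an order was not computed. In Per1 the A mouse was the highest of its group in 6 of 6 groups: it stood at 159 CPM in FL/FL PreCFU-E, where B and C had 49.5 and 33.0, at 134 CPM in KO/FL PreCFU-E, where they had 58.9 and 65.6, and at 87.8 CPM in Lepr-Cre PreCFU-E, where they had 57.4 and 36.3. In CFU-E Per1 had 95.1, 61.0 and 31.1 CPM in mice A, B and C of FL/FL, 100.2, 43.7 and 28.8 CPM in those of KO/FL and 63.2, 50.5 and 44.5 CPM in those of Lepr-Cre genotype. Tsc22d3 was highest in the A mouse in 5 of 6 groups, with 27.2, 18.5 and 7.73 CPM in FL/FL, 31.2, 13.5 and 13.5 CPM in KO/FL and 24.4, 16.6 and 12.6 CPM in Lepr-Cre PreCFU-E. The exception for Tsc22d3 was Lepr-Cre CFU-E, where mouse A had 7.20, B 14.3 and C 7.45 CPM.

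Fkbp5 was lowest in the C mouse in 6 of 6 groups. Txnip had the opposite order at its low end, with the A mouse lowest in 6 of 6 groups. On average over the 6 groups the A library lay above its group mean by 0.78 in Per1, 0.51 in Tsc22d3 and 0.26 in Fkbp5 on the log2 scale, and in Txnip the A library lay at -0.27. The C library lay at -0.62, -0.55 and -0.35 in Per1, Tsc22d3 and Fkbp5 and at 0.11 in Txnip. Zfp36l2 was highest in the B mouse in 5 of 6 groups, and Bmi1 was highest in A, B and C in 2 groups each.

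**Figure D4:**
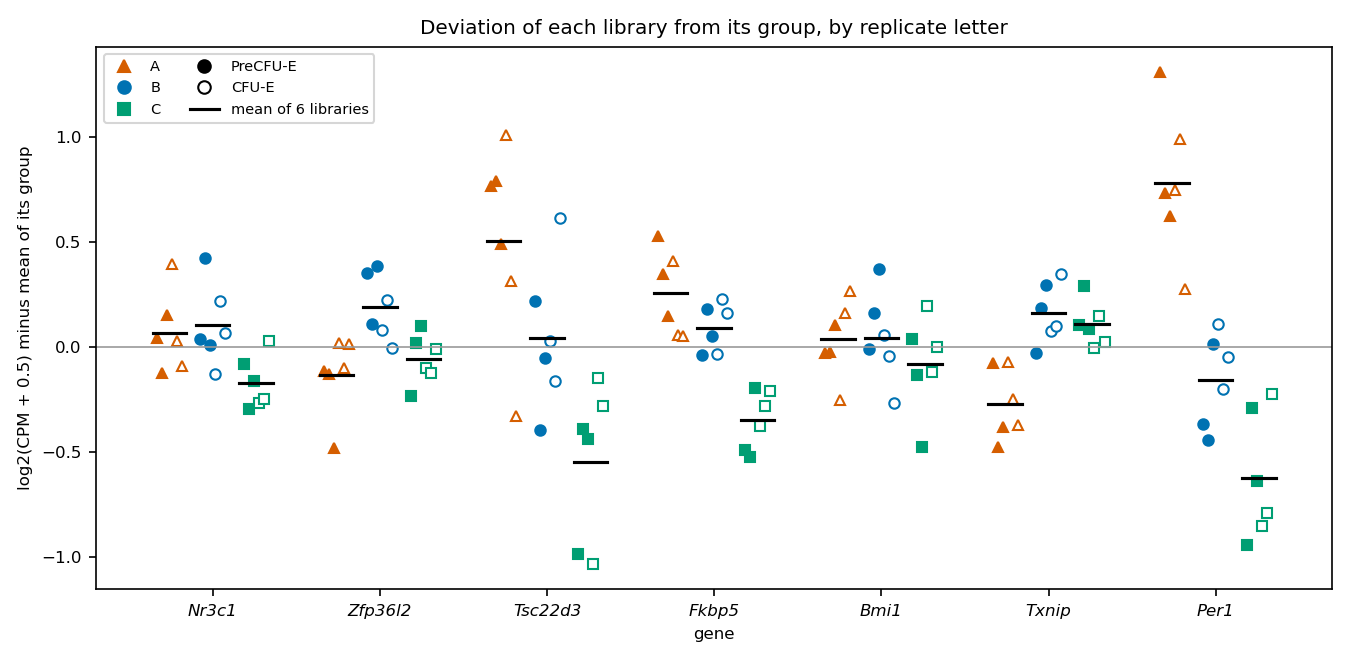
Deviation of each library from the mean of its group, in log2(CPM + 0.5), for the 7 genes by replicate letter, with filled symbols for PreCFU-E, open symbols for CFU-E and a bar for the mean of 6 libraries. The A libraries lie above 0 in all 6 groups for Per1 and below 0 in all 6 for Txnip, and the C libraries lie below 0 in all 6 for Fkbp5, Tsc22d3 and Per1.

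A term for the replicate letter, added after this order had been seen, was tested in edgeR beside genotype. In PreCFU-E it passed for 5 of 7 members, Fkbp5 (adjusted p = 2.28e-05), Tsc22d3 (0.00175), Txnip (0.00359), Per1 (0.00402) and Zfp36l2 (0.0369), beside 9.17% of all genes. In CFU-E it passed for Per1 alone (adjusted p = 0.00117), beside 2.55%, and the adjusted p was 0.201 for Fkbp5, 0.253 for Txnip and 0.50 for Tsc22d3. Letters B and A or C differ in sex, and A and C are both male. By mean deviation, A and C lay farthest apart in Per1, Tsc22d3 and Fkbp5. A and B did so in Txnip (-0.27 and 0.16) and Zfp36l2 (-0.13 and 0.19), and B and C in Nr3c1 and Bmi1. The part of sex in these orders was not tested. The labels say nothing more of what the letters mark.

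Other genes moved with the letters in the same libraries. Of 17 tested glucocorticoid-induced genes outside the 7, 4 passed the letter term in PreCFU-E, Hif3a, Dusp1 and Mt2 by smallest p among them, and 0 of 17 in CFU-E, where the shares over all genes were the 9.17% and 2.55% above. Of 18 chaperones and coregulators of the receptor 5 passed in PreCFU-E, Hspa8 (adjusted p = 6.66e-11) and Crebbp among them, and 2 in CFU-E, Hspa8 (adjusted p = 7.11e-05) and Dnaja1. Hspa8, the constitutive heat shock protein 70, had 1812 to 2615 CPM in the A libraries, 1338 to 1783 in B and 1200.5 to 1532 in C, and it was highest in A and lowest in C in 6 of 6 groups. Of the immediate-early genes, which respond to stimulation within minutes, 1 of 6 passed in PreCFU-E (Egr1) and 3 of 7 in CFU-E (Fos, Fosb and Jun). Between genotypes 2 of 6 were lower in Lepr-Cre than in FL/FL PreCFU-E, Egr1 (-4.27, edgeR adjusted p = 0.00125) and Ier2 (-1.08, adjusted p = 0.0126), beside 6.13% of all genes called. Against KO/FL PreCFU-E 1 of 6 was lower, Egr1, beside 2.18%. In Lepr-Cre CFU-E 0 of 7 passed against FL/FL or KO/FL, beside 4.83% and 1.01%. Fos was lowest in the C mouse in 6 of 6 groups, at 0 to 1.7 CPM in C and 0.6 to 42.9 CPM in A and B. Of the other clock genes 0 of 13 passed in PreCFU-E and 0 of 11 in CFU-E, and Per2 stood at 24.7 to 40.5 CPM in the A libraries, 26.1 to 56.6 in B and 24.7 to 43.5 in C. The part of any of these genes in the order of the 7 members was not tested.

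Genes of the surrounding pathways were followed in lists drawn up by function, with earlier results of these data known. Beside their counts stand the shares of all tested genes: in PreCFU-E 6.13% passed for Lepr-Cre against FL/FL and 2.18% against KO/FL, in CFU-E 4.83% and 1.01%, and in the step to CFU-E 18.3%, 14.1% and 7.25% in FL/FL, KO/FL and Lepr-Cre mice. A list gene given as changed only for Lepr-Cre against FL/FL did not pass against KO/FL mice, which share the null copy. Of 22 other glucocorticoid-induced genes 17 were tested in genotype comparisons, and 1 changed in Lepr-Cre against FL/FL PreCFU-E: Zbtb16, a zinc finger factor of early progenitors, was lower (-1.61, adjusted p = 7.39e-05 by edgeR). A count of 1 of 17 is near the 6.13% of all genes. The mean of Zbtb16 was 43.2 ± 5.8 CPM in FL/FL, 23.9 ± 2.7 in KO/FL and 14.1 ± 3.6 in Lepr-Cre PreCFU-E. No gene of this list changed between genotypes in CFU-E. The median log2 fold change of the tested genes was -0.12 in PreCFU-E and -0.20 in CFU-E for Lepr-Cre against FL/FL. In the step to CFU-E 1 of 18 fell in each genotype, and it was Zbtb16 (-3.49, adjusted p = 1.64e-08 in FL/FL mice), beside 7.25% to 18.3% of all genes.

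Of 18 tested chaperones and coregulators of the receptor, 1 rose in Lepr-Cre against FL/FL PreCFU-E, Hsp90aa1 (0.46, edgeR adjusted p = 0.0216), the chaperone that holds the receptor ready for hormone. All genes passed at 6.13% there. In CFU-E, beside 4.83% of all genes, 2 of 18 fell, Ncoa1 (-0.81, adjusted p = 0.00801) and Ncoa2 (-0.46, adjusted p = 0.0222), both steroid receptor coactivators, and Ncoa1 also fell against KO/FL mice (-0.72, adjusted p = 0.0478). The related mineralocorticoid receptor gene Nr3c2 had a mean of at most 4.5 CPM in any group, and Fkbp4, the counterpart of Fkbp5 in the receptor complex, had group means of 627 to 757 CPM and passed in no comparison. In the step to CFU-E 0 of 19 passed in FL/FL mice, 1 rose in KO/FL mice and 1 fell in Lepr-Cre mice, beside 18.3%, 14.1% and 7.25% of all genes. The first was Hsd11b2, which inactivates the hormone and went from 0 counts to 2.48 ± 1.5 CPM, and the second was Ncoa2 (-0.36, adjusted p = 0.0392).

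Among regulators of erythroid self-renewal, 3 of 10 tested genes fell in Lepr-Cre PreCFU-E against FL/FL, beside 6.13% of all genes called, and 3 of 10 against KO/FL, beside 2.18%. They were Gata2 (-1.70 and -1.22), Myb (-1.12 and -0.89) and Kit (-0.88 and -0.71), with edgeR adjusted p of at most 0.00129. Kit encodes the receptor of the deleted ligand, Myb and Gata2 are transcription factors of early progenitors, and Gata2 is also in the early progenitor list. In CFU-E 3 of 10 fell against FL/FL, Myb (-0.94, adjusted p = 0.000825), Kit (-0.73, adjusted p = 0.00539) and Rxra (-1.28, adjusted p = 0.0226), and 2 of 10 against KO/FL, Myb and Kit, beside 4.83% and 1.01% of all genes. In the step to CFU-E of FL/FL mice, where 18.3% of all genes were called, 4 of 10 fell and 1 rose, with Myb (-1.28) and Kit (-0.97) falling and Epor, the erythropoietin receptor, rising (0.80, adjusted p = 5.94e-05). The counts were also 4 and 1 in KO/FL mice, and 3 fell and 1 rose in Lepr-Cre mice, beside 14.1% and 7.25% of all genes. Ppara, whose protein acts with the glucocorticoid receptor in early erythroid progenitors, had a mean of at most 0.46 CPM in any group and was not tested.

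The relatives of Zfp36l2 and the deadenylation machinery, which shortens the tails of the mRNAs it binds, were a list of 16. In Lepr-Cre against FL/FL PreCFU-E, with 6.13% of all genes called, 2 of 14 fell, Btg1 (-1.06, edgeR adjusted p = 0.032) and Cnot6l (-0.44, adjusted p = 0.0382), and no gene of the list passed in CFU-E or in the step to it. Zfp36l1 had group means of 45.4 to 66.6 CPM and Zfp36 of 1.17 to 3.49 CPM, beside 182 to 481 CPM for Zfp36l2. Of the Polycomb repressive complex 1 genes around Bmi1, 1 of 18 changed in Lepr-Cre against FL/FL PreCFU-E, Pcgf3 (0.66, adjusted p = 0.0129). In the step of FL/FL mice, beside 18.3% of all genes, 2 of 19 rose and 3 fell, led by Phc1 (-1.55, adjusted p = 7.97e-07), Pcgf3 (0.56, adjusted p = 0.00886) and Pcgf2 (-1.51, adjusted p = 0.0193). In KO/FL mice 1 rose and 1 fell, Phc1 among them, and in Lepr-Cre mice 1 fell, Phc1. Cdkn2a, a classical target that Bmi1 represses, was at 0 counts in 5 of the 6 groups and had a mean of 0.19 CPM in KO/FL CFU-E.

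In the thioredoxin and arrestin-domain list, Txnrd1, the cytosolic thioredoxin reductase, rose in Lepr-Cre mice of both cell types. Its means were 163 ± 44 CPM in FL/FL, 164 ± 13 in KO/FL and 274 ± 30 in Lepr-Cre PreCFU-E, a log2 fold change of 0.75 against either control (edgeR adjusted p = 0.00262 against FL/FL and 0.00624 against KO/FL). In CFU-E they were 145 ± 16, 193 ± 33 and 295 ± 40 CPM, with changes of 1.04 against FL/FL (adjusted p = 6.07e-05) and 0.62 against KO/FL (adjusted p = 0.0203). Arrdc4, the arrestin-domain gene closest to Txnip in function and also a MondoA target, fell in Lepr-Cre against FL/FL PreCFU-E (-1.22, adjusted p = 0.00281), from 36.6 ± 6.9 to 15.7 ± 3.1 CPM. In KO/FL PreCFU-E mice A, B and C had 31.2, 20.1 and 20.9 CPM of Arrdc4, and Lepr-Cre against KO/FL did not pass. Arrdc4 fell in the step to CFU-E in FL/FL (-1.30, adjusted p = 0.000396) and KO/FL mice (-1.44, adjusted p = 0.000211), and in Lepr-Cre mice its difference was -0.73 (adjusted p = 0.0968). In all, 1 of 10 genes of this list rose and 1 fell in Lepr-Cre against FL/FL PreCFU-E, and 1 of 10 rose in CFU-E, beside 6.13% and 4.83% of all genes. In the step of FL/FL and of KO/FL mice 1 of 11 rose, Txnrd2, and 1 fell, Arrdc4, beside 18.3% and 14.1% of all genes, and none passed in Lepr-Cre mice.

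Of the clock genes beside Per1, 1 of 13 fell in Lepr-Cre PreCFU-E, Csnk1e, the kinase that marks PER proteins for turnover (-1.0 against FL/FL, edgeR adjusted p = 0.00174, and -0.80 against KO/FL, adjusted p = 0.0232). All genes passed at 6.13% and 2.18%. None of 11 passed in CFU-E. In the step of FL/FL mice 4 of 14 fell, led by Csnk1e (-1.44, adjusted p = 7.07e-06), Cry1 (-1.34, adjusted p = 0.00137) and Hlf (-2.83, adjusted p = 0.0137), 3 of 14 fell in KO/FL mice, and in Lepr-Cre mice 2 of 14, beside 18.3%, 14.1% and 7.25% of all genes. Per2 passed in no comparison (group means of 25.5 to 39.4 CPM). In the TSC22 and FKBP families, Tsc22d1 fell in Lepr-Cre against FL/FL mice in PreCFU-E (-0.77, adjusted p = 0.0103) and CFU-E (-0.75, adjusted p = 0.0085), while Fkbp9 rose in CFU-E (1.52, adjusted p = 0.00932). These were 1 of 14 tested genes of that list in PreCFU-E and 2 of 14 in CFU-E, beside 6.13% and 4.83% of all genes. In the step of FL/FL mice, beside 18.3%, 2 of 14 fell, Fkbp11 (-2.28, adjusted p = 0.0485) and Fkbp9 (-1.01, adjusted p = 0.0493). Tsc22d4 passed in no comparison, and no gene of any of these lists passed an interaction.

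The genes whose levels ran most like those of a member were found by Pearson's r of log2 CPM over the 18 libraries among 8864 genes, a description in which groups, mice and depth are shared. For Nr3c1 they were Sh2b1 (r = 0.921), Kit (0.905) and Phkb (0.904). For Txnip they were Fam65b (0.952), Ugcg (0.936) and Map7 (0.935), and for Zfp36l2 Diaph1 (0.938), Fam65a (0.937) and Cers4 (0.929). For Fkbp5 they were Dctd (0.947), Ski (0.944) and Arid1a (0.932). Tsc22d3 ran most like Tet3 (0.857), Smg1 (0.846) and Ythdf3 (0.841), and Per1 most like Frmd4a (0.853), Mdm4 (0.841) and Npepps (0.823). Bmi1, which passed in no comparison, had the lowest values, with Oxsm (0.731), Tm9sf1 (0.721) and Arcn1 (0.708).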

How the data were processed

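Total RNA of sorted cells was made into stranded libraries, per the labels' protocols, which mention nuclear extraction in a heading but describe cells; whole cells were assumed. Per the submitters' processing notes, STAR 2.5.2b, HTSeq and mm10 were used. The deposited count table holds whole-number counts per gene symbol, 1 column per library, not normalised by the authors. The deposited RPKM table divides by 1 length per gene, which lay within 10% of the exon length for 3.35% of 6952 genes. RPKM was therefore used only within a gene, and levels between genes are CPM per kb of GENCODE M21 exons.

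Genotypes were compared on the 9 libraries of a cell type, and the step and interactions on all 18, with edgeR 4.0.16 in R 4.3.3: TMM, filterByExpr (minimum count 10, total 15), robust quasi-likelihood test, two-sided, Benjamini-Hochberg adjustment over all tested genes, threshold 0.05. SE was taken from the fold change and the F statistic (size over root of F). CPM use library totals and TMM factors. Alternatives used DESeq2 1.42.0, limma 3.58.1 on log2(RPKM + 1) and log2(RPKM + 0.1), no filter, blocks, other libraries and each library left out. The scripts were tested on simulated data.

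Same-lettered libraries deviated together from their group means in every comparison (r = 0.13 to 0.343 over 8865 genes), and a mouse gave both cell types. Letters and mice were therefore used as blocks in alternative fits. Calls are of the fits without a block unless a block is named, and the blocked value of a member is given beside them where it changes a call. The members and lists were chosen with earlier results of these data known. Named are the 7 members, up to 3 called genes of a list per comparison by smallest p, relatives of the members fixed by role, and the 3 genes most like each member (mean of at least 5 CPM). A gene that this rule would name is not reported here.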

Additional observations from a re-analysis of the deposited data

How the results depend on the processing

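Over 183 alternative counts of called members, 159 stayed within 1.5 times the reported count and 24 did not, and no called difference of a member changed sign. For Lepr-Cre against FL/FL PreCFU-E (2 members), limma on log2(RPKM + 1) and on log2(RPKM + 0.1) called 1 each, all 18 libraries 1, the replicate block 4 and leaving out a library 1 to 2. For Lepr-Cre against KO/FL PreCFU-E (0), DESeq2 called 1, no filter 2, all 18 libraries 1, the replicate block 3 and leaving out a library 0 to 1. Leaving out all A mice gave 1 in each of these comparisons. For Lepr-Cre against FL/FL CFU-E (1), no filter called 2, the replicate block 2 and leaving out a library 1 to 2, and for KO/FL against FL/FL CFU-E (0) no filter called 1. For the step in KO/FL mice (3) no filter called 5 and the mouse as replicate block 6, and in Lepr-Cre mice (2) they called 4 and 4. The other counts of members changed by less, and the cause was not tested.

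Counts over all genes moved more. For Lepr-Cre against FL/FL PreCFU-E edgeR called 632 genes, DESeq2 820, the 2 limma settings 267 and 263 and the replicate block 1586, and leaving out a library 371 to 473. Of 1281 alternative values of single members, 33 gained and 15 lost a call, and all 15 losses were of Nr3c1. The members had at least 35 counts in every library, and with 3 mice per group the spread between mice sets the precision.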
